A study of Homo sapiens with 9 samples.

Results

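The members were 10 genes commonly read as signs of an epithelial-mesenchymal transition (EMT), followed across 3 kinds of A549 cells: the transcription factors SNAI1, SNAI2, ZEB1, ZEB2 and TWIST1, and the mesenchymal genes VIM, CDH2, FN1, ACTA2 and TAGLN. They were taken by name, and every non-control probe annotated to a RefSeq transcript of a member was used, which gave 16 of the 50599 probes on the array and 10 of the 21743 genes that could be named. A549 is a human lung adenocarcinoma line. Parental A549 cells were harvested at passage P98 or P99. Both kinds of transduced cells were made from A549 with retroviruses for OCT3/4, SOX2 and KLF4 (OSK) and harvested at P106 or P107. Those named OSK-A549-SN were spindle-shaped cells that trypsin released first, and those named OSK-A549-Colony were released later. Each group had 3 single-colour arrays, 1 RNA sample each. Transduction and the later passage go together in every sample, so the 2 cannot be told apart, and the SN or colony fraction was defined by detachment and not by a marker.

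EMT is a reversible programme in which epithelial cells loosen their junctions and take on a spindle shape and motility. Zinc finger and basic helix-loop-helix factors of the SNAIL, ZEB and TWIST families bind E-box sequences in promoters such as that of the E-cadherin gene and lower its transcription, while intermediate filament, cadherin, matrix and contractile genes of mesenchymal cells are switched on. A549 cells are known to carry both keratins and vimentin in ordinary culture.

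Promoter windows of the members, reaching from 250 bases before to 50 bases after a transcription start, were read from RefSeq (GRCh38.p14). ZEB1, ZEB2, VIM, CDH2, FN1 and ACTA2 had an entry in that table. SNAI1, SNAI2, TWIST1 and TAGLN had none. The windows shown are that of FN1, the member with the largest difference between OSK-A549-SN and parental A549 cells, and, out of 7 for ZEB1, the window with the most E-boxes. Capitals mark the motifs found. In the FN1 window (chr2:215436019-215436318, minus strand) they mark the cAMP response element TGACGTCA, and in the ZEB1 window (chr10:31318966-31319265, plus strand) the E-box CAGGTG or its reverse complement CACCTG.
FN1: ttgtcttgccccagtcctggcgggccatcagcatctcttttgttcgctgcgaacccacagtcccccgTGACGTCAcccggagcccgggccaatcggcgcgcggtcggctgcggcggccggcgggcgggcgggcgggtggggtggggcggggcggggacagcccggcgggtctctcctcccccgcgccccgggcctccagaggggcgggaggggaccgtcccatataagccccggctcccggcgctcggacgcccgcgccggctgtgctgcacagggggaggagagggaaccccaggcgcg
ZEB1: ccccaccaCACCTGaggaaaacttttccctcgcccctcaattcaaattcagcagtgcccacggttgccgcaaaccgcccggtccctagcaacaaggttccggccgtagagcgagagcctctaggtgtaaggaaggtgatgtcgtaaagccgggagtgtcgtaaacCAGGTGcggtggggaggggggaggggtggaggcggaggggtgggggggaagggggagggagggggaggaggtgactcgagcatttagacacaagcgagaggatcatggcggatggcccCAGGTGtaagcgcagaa
The E-box stood at positions -242, -85 and 34 of the ZEB1 window, counted from the transcription start, and once, at -57, in another ZEB1 window. The response element began at -183 in FN1. The E-box was found on either strand in 20.6% of all 35116 promoter windows of the table and the response element in 1.85%. The CArG box of muscle genes was searched for only in its strict form, with nothing but A or T between CC and GG. That form was found in 1.29% of all windows and was not in these windows of the members. A box with a C or G between CC and GG would be missed, and TAGLN had no window. Whether the members lack CArG boxes was therefore not tested. Matches to any of these motifs describe letters and are not binding sites.

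Levels are given as log2 intensity relative to the 75th percentile of the same array, so 0 stands for that percentile and a step of 1 is a 2-fold difference. A level of 1 probe is compared between groups and never with the level of another probe. A probe was taken as detected where the scanner software put it well above background. Between 25808 and 29315 probes were detected per array, the 75th percentile lay at an intensity of 217.5 to 270.6 and the dimmest detected probe of an array at 7.91 to 13.5. Of the 16 member probes, 11 from 8 genes were detected on all 9 arrays and 4 on none of them. All 6 markers of the lung epithelial line (KRT7, KRT8, KRT18, KRT19, EPCAM and CDH1) were detected on every array, with summed intensities of 389841 to 406217 in parental A549, 366492 to 381856 in colony and 396905 to 407543 in SN cells. Of 8 stromal markers, 7 (DCN, LUM, PDGFRA, PDGFRB, COL3A1, POSTN and THY1) were detected on no array of any group. Their sum with COL1A1 ran from 29.8 to 40.0, 31.5 to 48.1 and 35.9 to 38.4 in the same order. The endothelial markers PECAM1, TEK and CLDN5 were likewise detected on no array, while CDH5 and VWF were on all of them. KDR was detected on 0 parental, 0 colony and 1 SN array. The sum of these 6 markers ran from 53.6 to 71.1, 57.7 to 60.1 and 59.4 to 125.6 in the same order. The leukocyte-associated genes PTPRC, CD14, CD68 and CD79A were detected on all 9 arrays, and CD3E on 1 parental, 0 colony and 1 SN array. Of the transduced factors, KLF4 had a mean level of -2.37 ± 0.10 in parental A549, 0.41 ± 1.06 in colony and 0.10 ± 1.26 in SN cells (SD, n = 3 each), and SOX2 had -2.89 ± 1.39, -3.07 ± 0.41 and -2.18 ± 0.45. The 2 probes of POU5F1, the gene of OCT3/4, differed in direction, with -2.12 ± 0.35, 0.10 ± 1.73 and 0.19 ± 1.92 for A_24_P144601 and 1.39 ± 0.19, 0.97 ± 0.43 and 1.06 ± 0.42 for A_23_P59138. Whether these probes lie in the transduced sequence is not given in the sources used here. In RNA of whole cultures, fewer cells that express a gene and less RNA of it per cell cannot be told apart.

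No member probe passed the call rule in any comparison of 2 groups. The rule was an adjusted p under 0.05 in limma, with the Benjamini-Hochberg adjustment over all probes tested, and a fold change over 2. In OSK-A549-Colony against parental A549 cells, 0 of the 12 member probes tested were called, where 3.7% of all 30864 probes were called. In OSK-A549-SN against parental A549 cells 0 of 12 were called, where 1.55% of 32218 probes were. In OSK-A549-Colony against OSK-A549-SN cells 0 of 12 were called, and 0% of 31746 probes were. At an unadjusted limma p under 0.05 and the same fold, 2, 1 and 1 member probes passed in these 3 comparisons, against 6.6%, 5.83% and 2.09% of all probes. The limma F test over the 3 groups, at an adjusted p under 0.05, passed 1 of 12 member probes, a CDH2 probe, and 11.4% of 33083 probes. At an unadjusted p under 0.05 it passed 6 of 12, and 30.5% of all probes. With 3 arrays a group, the 2-sided exact permutation test of a single probe cannot give a p under 0.1.

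**Figure D1:**
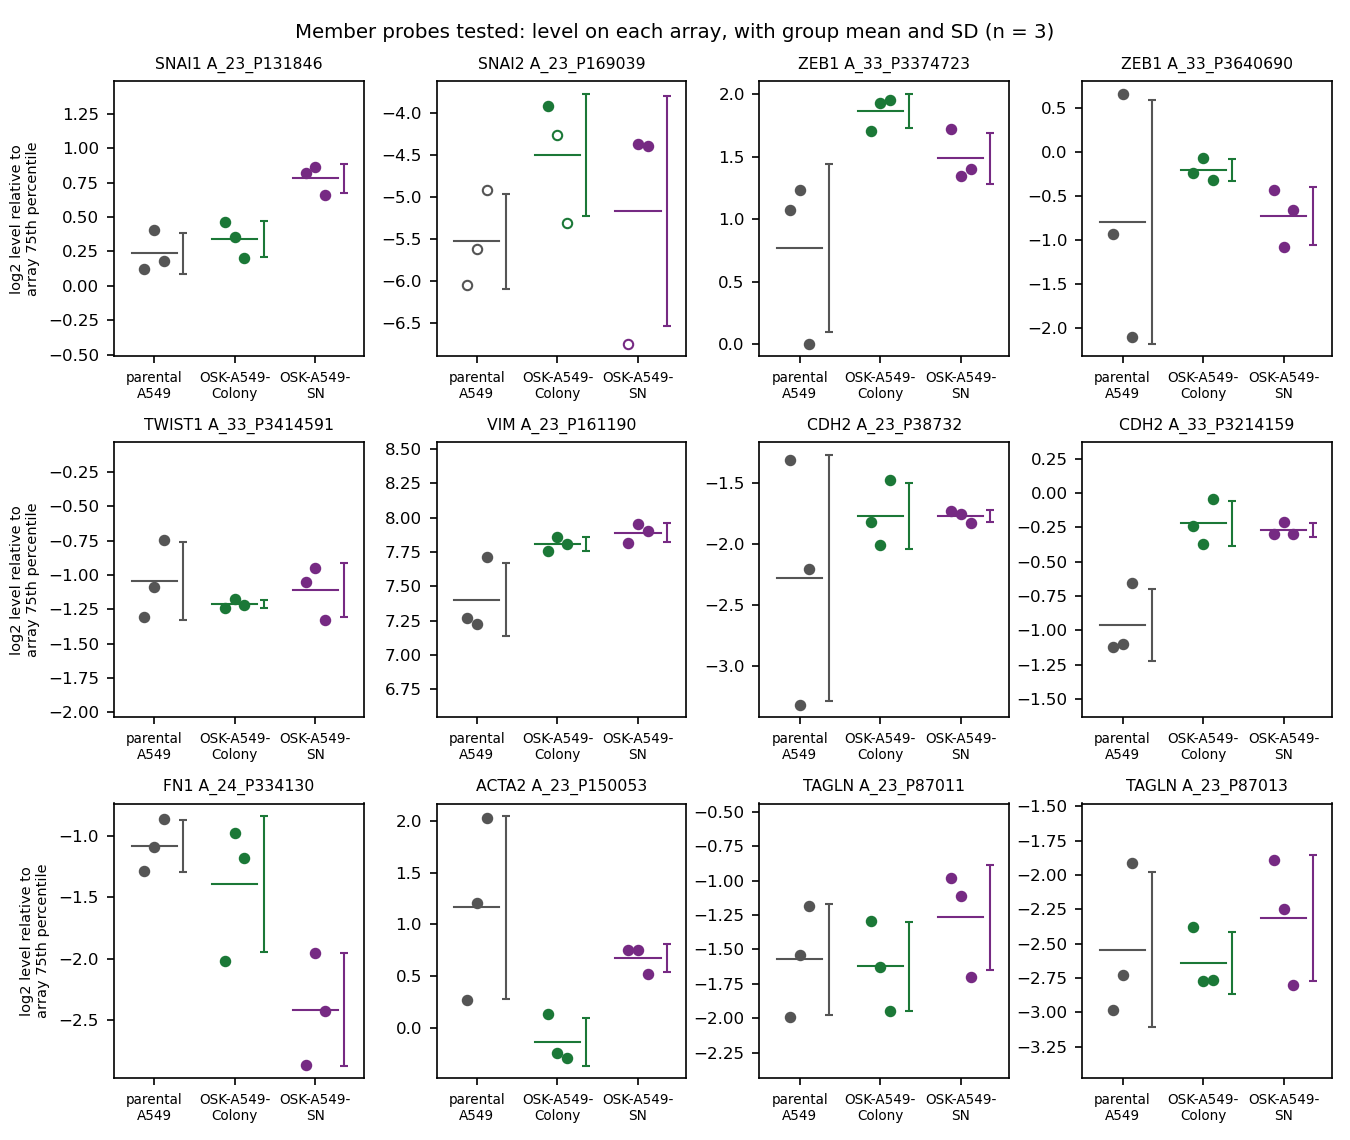
Level of each tested member probe on every array (log2 relative to the array's 75th percentile, y axis) by group (x axis). Points are arrays, filled where the probe was well above background, horizontal lines are group means and vertical bars are SD (n = 3); each panel has its own y axis. The 3 OSK-A549-SN arrays lie above all others for SNAI1 and below the parental arrays for FN1, and the 3 parental arrays lie below all others for CDH2 A_33_P3214159.

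Among the SNAIL factors, SNAI1, a repressor of the E-cadherin gene, was at its highest level in OSK-A549-SN cells. Its probe A_23_P131846 read 0.12, 0.41 and 0.18 on the parental A549 arrays, 0.46, 0.36 and 0.20 on the OSK-A549-Colony arrays and 0.82, 0.87 and 0.66 on the OSK-A549-SN arrays. Every OSK-A549-SN array lay above every array of the other 2 groups, and the parental and colony arrays overlapped. The mean of OSK-A549-SN cells was 0.55 above that of parental A549 cells (95% interval 0.20 to 0.90, adjusted p = 0.110 in limma). The mean of OSK-A549-Colony cells was 0.44 below that of OSK-A549-SN cells on the log2 scale (-0.44, interval -0.72 to -0.17, adjusted p = 0.145) and 0.10 above that of parental cells (interval -0.22 to 0.42, adjusted p = 0.616). SNAI1 came next to CDH2 in the F test, at an adjusted p of 0.0504. SNAI2, the related factor also named SLUG, was near the limit of detection. Its probe A_23_P169039 was above background on 0 of 3 parental, 1 of 3 colony and 2 of 3 SN arrays, with mean levels of -5.53 ± 0.57, -4.49 ± 0.72 and -5.17 ± 1.37 (SD, n = 3), and the groups overlapped in each comparison.

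ZEB1, which represses E-cadherin and the miR-200 genes, was measured by 2 probes that gave different pictures. Probe A_33_P3374723 read 1.08, 1.23 and 0.00 in parental A549, 1.71, 1.93 and 1.95 in colony and 1.72, 1.35 and 1.40 in SN cells. All 6 arrays of transduced cells were above the 3 parental arrays, of which replicate 3 was the lowest. The difference between colony and parental cells was 1.09 (interval 0.25 to 1.94, adjusted p = 0.0999), a 2.13-fold higher mean, and that between SN and parental cells was 0.72 (interval -0.14 to 1.57, adjusted p = 0.302). Without parental replicate 3 the first difference was 0.71 with an adjusted p of 0.0360, under the fold limit. Probe A_33_P3640690 read -0.94, 0.66 and -2.10 in parental cells, a spread that covered all 6 other arrays. Its differences were 0.59 in colony (interval -1.09 to 2.27, adjusted p = 0.584) and 0.07 in SN cells (interval -1.60 to 1.74, adjusted p = 0.962) against parental cells. In OSK-A549-Colony against OSK-A549-SN cells, both ZEB1 probes were higher in the colony cells, by 0.38 (adjusted p = 0.233) with overlap and by 0.52 (adjusted p = 0.224) without. Over the 9 arrays the probes had a correlation of r = 0.718. RefSeq lists 41 transcripts of ZEB1, and which of them each probe reads is not given in the sources used here.

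The 3 probes of ZEB2, the second ZEB factor, were above background on no array of any group, so that no level or fold is given. TWIST1 differed little between groups. Of its 2 probes, A_23_P71073 was above background on no array, and A_33_P3414591 had mean levels of -1.04 ± 0.28 in parental A549, -1.21 ± 0.03 in colony and -1.11 ± 0.20 in SN cells (SD, n = 3). The intervals of its differences ran from -0.57 to 0.24, from -0.55 to 0.42 and from -0.40 to 0.20 in colony against parental, SN against parental and colony against SN cells, which leaves out a 2-fold difference in either direction.

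VIM, the intermediate filament protein vimentin, was detected far above background in all 3 kinds of cells. Its probe A_23_P161190 read 7.27, 7.23 and 7.71 in parental A549, 7.76, 7.86 and 7.81 in colony and 7.81, 7.95 and 7.90 in SN cells. The 6 arrays of transduced cells were above the parental arrays, by a margin that parental replicate 3 left small. The mean was 0.41 higher in colony (interval 0.02 to 0.80, adjusted p = 0.155) and 0.49 higher in SN cells (interval 0.06 to 0.91, adjusted p = 0.186) than in parental cells. Between colony and SN cells it differed by -0.08 (interval -0.29 to 0.13, adjusted p = 0.597).

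CDH2, N-cadherin, the adhesion protein of mesenchymal and neural cells, had the smallest adjusted p of the members in colony against parental cells. Its probe A_33_P3214159 read -1.12, -1.10 and -0.66 in parental A549, -0.24, -0.37 and -0.04 in colony and -0.30, -0.21 and -0.30 in SN cells. The parental arrays lay below all 6 others, and colony and SN arrays overlapped. The mean was 0.74 higher in colony cells, a 1.67-fold difference (interval 0.31 to 1.17, adjusted p = 0.0557), and 0.69 higher in SN cells, a 1.61-fold difference (interval 0.28 to 1.10, adjusted p = 0.0985). Colony and SN cells differed by 0.05 (interval -0.22 to 0.32, adjusted p = 0.803). This was the probe that passed the F test, with an adjusted p of 0.0325, and it passed in 7 of 17 alternative settings, among them 2 of the 9 in which 1 array was left out (parental replicate 3 or SN replicate 3). The second probe, A_23_P38732, read -1.31, -3.31 and -2.20 in parental cells and between -2.01 and -1.47 on the 6 arrays of transduced cells. Its differences from parental cells were 0.51 in colony (interval -0.76 to 1.77) and 0.51 in SN cells (interval -0.69 to 1.70), with the groups overlapping, and its correlation with the first probe was r = 0.459 over 9 arrays.

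FN1, the matrix glycoprotein fibronectin, had a lower mean in OSK-A549-SN cells. Its probe A_24_P334130 read -1.28, -1.09 and -0.86 in parental A549, -2.02, -0.97 and -1.18 in colony and -2.87, -1.95 and -2.43 in SN cells. All SN arrays were below all parental arrays, while colony replicate 1 lay within the SN range. Each SN array was below the colony array of the same number. The F test gave an adjusted p of 0.0595, and of 0.0473 with the replicate block. The SN mean was 2.52-fold lower than the parental mean, with a log2 difference of -1.33 (SE 0.26, interval -1.98 to -0.69), and its adjusted p of 0.0701 was the smallest of the members in that comparison. The log2 difference of colony from SN cells was 1.02 (interval 0.13 to 1.91, adjusted p = 0.217) and that of colony from parental cells was -0.31 (interval -1.05 to 0.43, adjusted p = 0.513). With normexp background correction the log2 difference of SN from parental cells was -0.73. The probe is annotated to NM_054034, and RefSeq lists 18 transcripts of FN1. Which of them the probe reads is not given in the sources used here.

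ACTA2, smooth muscle alpha-actin, a marker of myofibroblasts, was lowest in OSK-A549-Colony cells. Its probe A_23_P150053 read 0.27, 1.20 and 2.03 in parental A549, 0.14, -0.24 and -0.29 in colony and 0.75, 0.75 and 0.52 in SN cells. The colony arrays lay below all 6 others, and the parental arrays spread across the SN values on both sides. The colony mean differed from the SN mean by -0.81 (interval -1.18 to -0.44, unadjusted p = 0.00201 and adjusted p = 0.110 in limma), the smallest p of the members in that comparison and the 571st smallest of 31746. From the parental mean it differed by -1.30, 2.46-fold (interval -2.41 to -0.18, adjusted p = 0.124). Without parental replicate 1 that difference was -1.75, with an adjusted p of 0.0425, and without parental replicate 3 it was -0.87, with 0.146. The SN mean differed from the parental mean by -0.49 (interval -1.56 to 0.58, adjusted p = 0.544). TAGLN, transgelin, an actin-binding protein of smooth muscle, overlapped between groups for both its probes in every comparison. Probe A_23_P87011 had means of -1.57 ± 0.40, -1.62 ± 0.33 and -1.27 ± 0.38 and probe A_23_P87013 of -2.54 ± 0.56, -2.64 ± 0.22 and -2.31 ± 0.46 in parental, colony and SN cells (SD, n = 3), and the probes had r = 0.917 over 9 arrays. Their smallest adjusted p was 0.462.

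**Figure D2:**
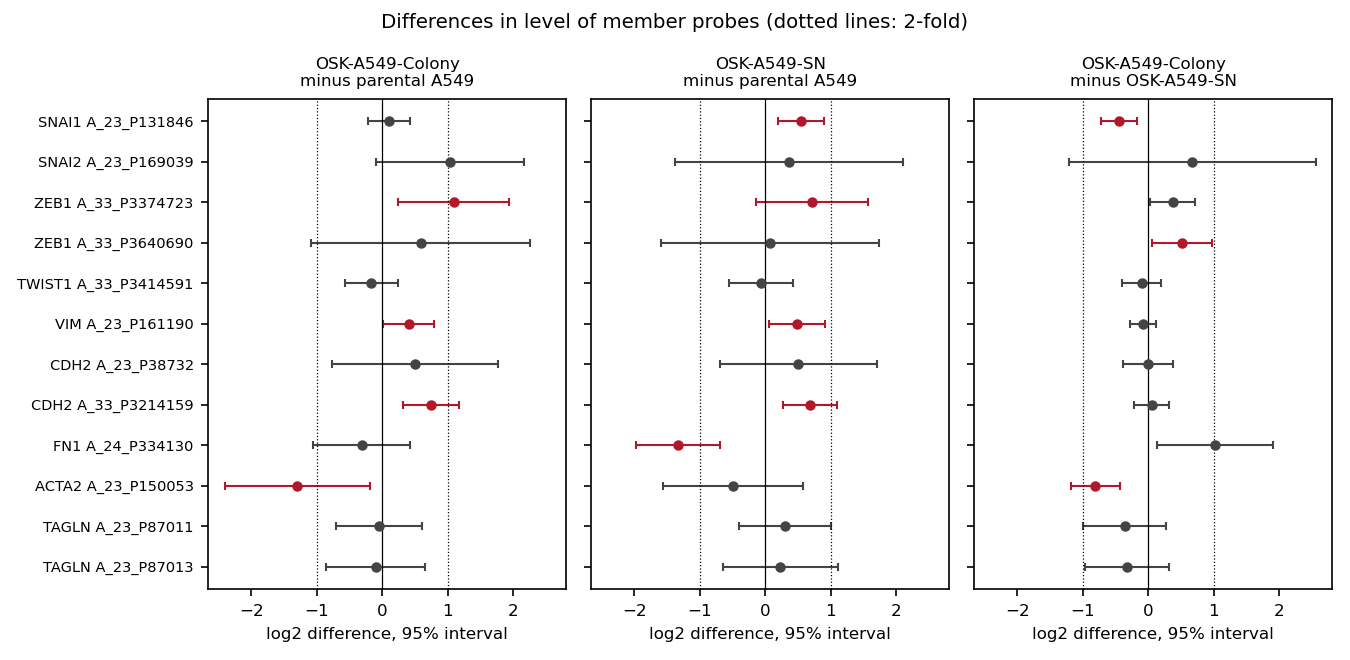
Log2 difference in level (x axis) of each tested member probe (y axis) in 3 comparisons, with 95% intervals from limma; dotted lines mark a 2-fold difference. Red marks probes whose arrays do not overlap between the groups, and the intervals of SNAI1, TWIST1 and VIM stay within 2-fold in all 3 comparisons.

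The member probes, of which ZEB1, CDH2 and TAGLN had 2 each, were also counted by direction, with no test. In OSK-A549-Colony against parental A549 cells, 7 of the 12 tested probes had a higher and 5 a lower mean, with a median log2 difference of 0.25, beside -0.03 over all probes tested. In OSK-A549-SN against parental A549 cells, 9 were higher and 3 lower, with a median of 0.33 beside 0.08. In OSK-A549-Colony against OSK-A549-SN cells 6 were higher and 6 lower, with a median of -0.04 beside -0.06. The arrays of the 2 groups did not overlap for 4, 5 and 3 of the 12 probes, or 33.3%, 41.7% and 25.0%, where 41.6%, 32.1% and 30.8% of all probes tested did not overlap. These shares lay on both sides of those of all probes. The comparisons against parental cells share the same 3 parental arrays.

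The mean differences of the members ran in both directions. Against parental cells, SNAI1, SNAI2, VIM and both probes of ZEB1 and of CDH2 had a higher mean in both kinds of transduced cells, while TWIST1 probe A_33_P3414591, FN1 and ACTA2 had a lower mean in both. The differences of TWIST1 and SNAI2 in SN cells each changed sign in 3 settings, and those of CDH2 A_23_P38732 in both comparisons and of ZEB1 A_33_P3640690 in colony cells in 1 each. The log2 difference of FN1 in colony cells was 0.0028 without colony replicate 1, and that of ACTA2 in SN cells was -0.06 without parental replicate 3. In all, 23 of the 36 differences kept their sign under every alternative setting that was run. Those of TAGLN A_23_P87011 in colony against parental cells and of ZEB1 A_33_P3640690 in SN against parental cells changed sign most often, each in 4 settings.

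**Figure D3:**
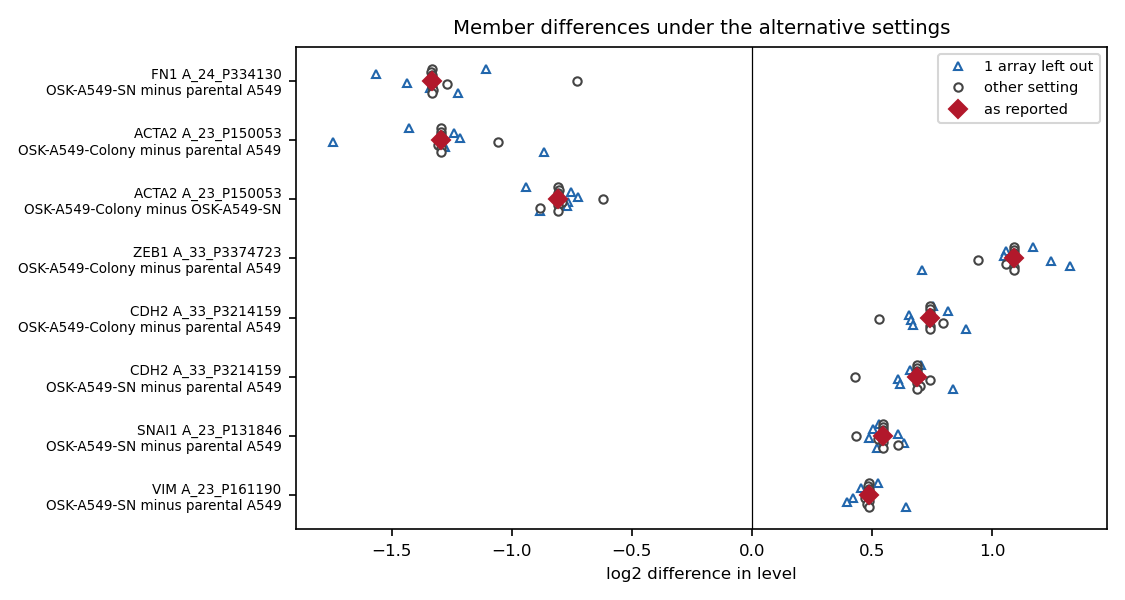
Log2 difference in level (x axis) of 8 member results (y axis) as reported (red diamonds), with 1 array left out (blue triangles) and under the other settings (circles). Each kept its sign in all settings shown, and FN1 in OSK-A549-SN minus parental A549 cells ranged from -1.57 to -0.73.

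Other factors of the EMT programme were set beside the members, with 1 probe per gene. Of 14 such genes 10 were tested in OSK-A549-Colony against parental A549 cells, and 1 was called higher and 1 lower, where 3.90% of all genes were called. GSC, goosecoid, was above background on 3 of 3 colony and 0 of 3 parental arrays. In the main processing it was at least 2.40-fold higher in colony cells (adjusted p = 0.0214), a bound that nearly equals its fitted fold. With normexp background correction the log2 difference was 0.30, smaller than that bound, and was not called. TWIST2, a paralog of TWIST1, was contradictory: probe A_23_P21324 was lower by a log2 difference of -1.02 (adjusted p = 0.0422), while A_19_P00322910 and A_19_P00322911 were higher by 1.36 and 1.74 (adjusted p = 0.0366 and 0.0221), so its direction is uncertain, and with normexp none of the 3 was called. HMGA2, a chromatin protein of embryonic cells, was likewise called higher by probe A_23_P95930 (1.14, adjusted p = 0.0249) and had a difference of -0.29 by its brightest probe. In OSK-A549-SN against parental cells, 0 of 10 were called by the brightest probe, where 1.63% of all genes were, and TWIST2 probe A_19_P00322911 was called higher by 1.42 (adjusted p = 0.0374), which was 0.57 and not called with normexp. In colony against SN cells 0 of 10 were called, and 0% of all genes were. The smallest p there were those of TCF3, which encodes E-box binding E2A proteins (-0.33, adjusted p = 0.151), and GSC (0.58, adjusted p = 0.159).

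Among epithelial genes, some of them targets of EMT factors, 1 was called in each comparison with parental cells. In OSK-A549-Colony against parental A549 cells 12 of 15 tested genes of the list of 20 had a lower mean, with a median log2 difference of -0.42 beside 0.03 over all genes, and 1 was called, where 3.90% of all genes were. That gene, MARVELD3, a tight junction protein, fell by 1.07 on the log2 scale at 1 of its 2 probes (adjusted p = 0.0459), with 3 parental and 1 colony array above background, and with normexp the difference was -0.22 and was not called. CDH1, E-cadherin, the classic target of SNAI1 and ZEB1, read a mean of 3.42 ± 0.28 in parental and 2.43 in colony cells, a log2 difference of -0.996 (SE 0.17, adjusted p = 0.0318) and a 1.99-fold lower level, just inside the fold limit and so not called. It was called with quantile normalization (-1.05, adjusted p = 0.0206) and without parental replicate 1 (-1.08, adjusted p = 0.0421). In SN against parental cells 11 of 17 were lower, with a median of -0.40 beside 0.09, and 1 was called, where 1.63% of all genes were. MARVELD3 fell by 1.09 (adjusted p = 0.0428), with 1 of 3 SN arrays above background, and with normexp its difference was -0.26 and was not called. CDH1 had a difference of -0.83 (adjusted p = 0.0860). Between colony and SN cells 0 of 17 were called, and 0% of all genes were. CDH1 differed by -0.16 there (adjusted p = 0.422). The tight junction genes MARVELD2 and OCLN had the smallest p in that comparison, with differences of 0.59 (adjusted p = 0.105) and 0.47 (adjusted p = 0.106). EPCAM, an epithelial adhesion molecule, had differences of -0.38 in colony and -0.72 in SN cells from parental cells (adjusted p = 0.677 and 0.461). ESRP1, an epithelial splicing regulator, was above background on 1 parental, 1 colony and 3 SN arrays and differed by -1.12 between colony and SN cells (adjusted p = 0.138), or -0.21 with normexp. GRHL2, a factor that maintains the epithelial state, was above background on 0 parental, 0 colony and 1 SN array.

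Genes of contraction and matrix were set beside ACTA2, TAGLN and FN1. Of 21 contractile and actin-binding genes tested in OSK-A549-Colony against parental A549 cells 2 were called, both higher, where 3.90% of all genes were called. TPM1, tropomyosin, rose by 1.38, 1.28 and 1.19 at its 3 probes (adjusted p = 0.0219, 0.0193 and 0.0185). CNN1, calponin, was above background on 2 of 3 colony and 0 of 3 parental arrays. In the main processing it was at least 1.58-fold higher in colony cells (adjusted p = 0.0460). With normexp the log2 difference was 0.36, smaller than that bound, and was not called. In SN against parental cells 0 of 21 were called, where 1.63% of all genes were. The smallest p were those of ACTG2, smooth muscle gamma-actin (adjusted p = 0.0604), and MYH10, a nonmuscle myosin, at -0.66 (adjusted p = 0.0962). ACTG2 was at least 1.71-fold higher in the main processing, while with normexp its log2 difference was 0.39, smaller than that bound. In colony against SN cells 0 of 21 were called, and 0% of all genes were. The YAP target genes CCN1 and CCN2 differed by 0.99 (adjusted p = 0.105) and 1.14 (adjusted p = 0.110). With normexp CCN1 was called (1.02, adjusted p = 0.0184) and CCN2 was not (0.72).

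Of the 25 mesenchymal surface and matrix genes 12 were tested in OSK-A549-Colony against parental cells and 2 were called, both higher, where 3.90% of all genes were called. Of these, COL5A1, a chain of type V collagen, rose by 1.57 at probe A_33_P3629678 (adjusted p = 0.0372). Its second probe was also called higher (adjusted p = 0.0460), with 1 of 3 colony and 0 of 3 parental arrays above background, so no fold is given. COL5A1 was the gene of 14 called in OSK-A549-SN against parental cells, where 1.63% of all genes were called, higher by 1.61 at the first probe (adjusted p = 0.0475) and called at the second (adjusted p = 0.0474), which was above background on 1 of 3 SN arrays. In colony against SN cells 0 of 14 were called, and 0% of all genes were. SPARC, a collagen-binding matrix protein, had the smallest p there (adjusted p = 0.110), with 0 of 3 colony and 2 of 3 SN arrays above background. It was at least 1.18-fold higher in SN cells in the main processing. With normexp its log2 difference of colony from SN cells was -0.13, smaller than that bound. Outside these lists the leukocyte-associated gene CD68 was called higher in colony than in parental cells, by 1.04 (adjusted p = 0.0272). In SN cells CD68 was higher than in parental cells by 1.03 (adjusted p = 0.0577, not called), and colony and SN cells differed by 0.004. KRT19, a keratin of simple epithelia, had a difference of 1.18 between colony and parental cells (adjusted p = 0.0625) and of 1.22 between colony and SN cells (adjusted p = 0.134). With normexp KRT19 was called in both (1.14 and 1.25, adjusted p = 0.0212 and 0.0416). Of the 18 probes called in all these lists, none stayed called without parental replicate 2, 8 did without parental replicate 1 and 11 without parental replicate 3. The calls in colony cells were all lost without colony replicate 2 or 3 and 1 of 13 was kept without colony replicate 1, and those in SN cells were lost without any SN array. Calls over all probes were lost as well. Without parental replicate 2, 1 of 30319 probes was called in colony and 2 of 31726 in SN against parental cells. Of 251 differences of the called list probes under alternative settings, 0 changed sign.

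**Figure D4:**
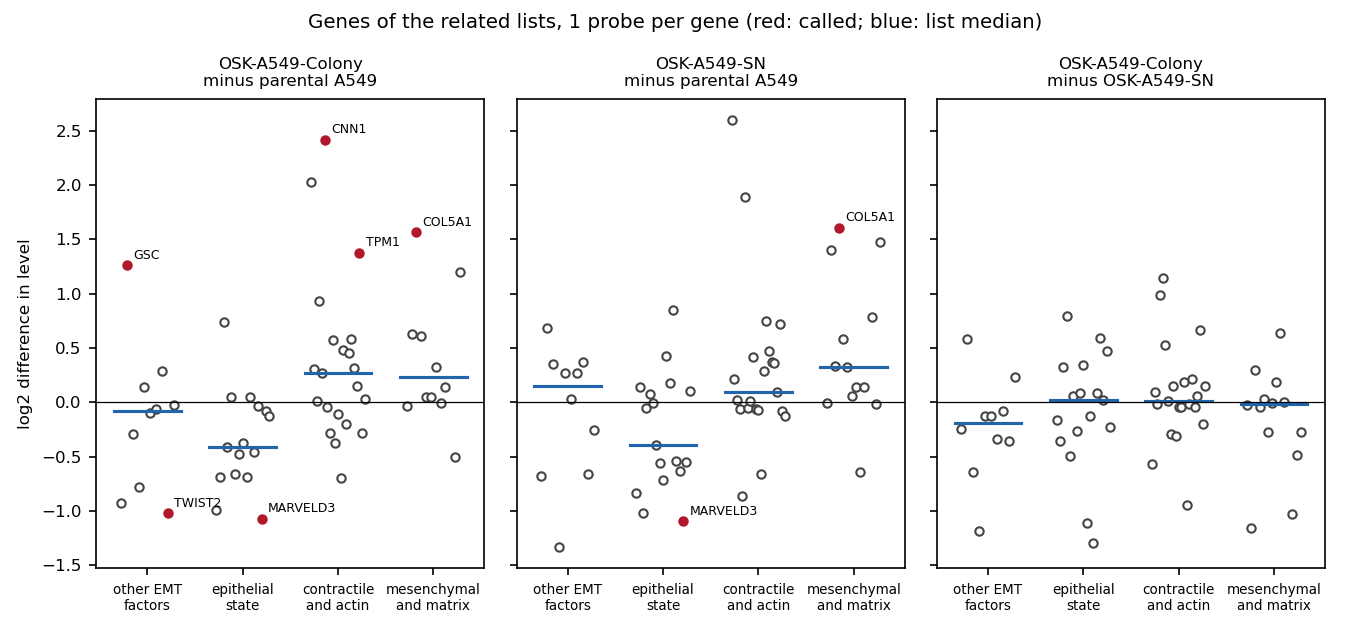
Log2 difference in level (y axis) of the genes of 4 related lists (x axis), 1 point per tested gene at its brightest probe, in 3 comparisons; 1 mesenchymal and matrix gene is not drawn but counts in the medians, and genes below background in 1 group, such as CNN1 and GSC, are drawn at their measured difference. Red points are called genes, blue lines are list medians, which were -0.42 and -0.40 for the epithelial genes against parental cells, and TWIST2 had other probes in the opposite direction.

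Several members had a pattern over the 9 arrays that other genes followed closely, given as Pearson r among 13943 genes detected on all arrays. The nearest genes were DISC1 (0.953) for SNAI1, CEP83 (0.994) and TVP23B (0.992) for ZEB1, and SELENOM (0.990) and ZNF653 (0.989) for TWIST1. They were EPHB2 (0.991) and SP110 (0.988) for VIM, ORAI1 (0.980) and LINC01116 (0.980) for CDH2, and RAB38 (0.969) and CPN1 (0.967) for FN1. For ACTA2 they were LOC728392 (0.989) and TCEAL5 (0.984), and for TAGLN BHLHE40 (0.973) and DGKA (0.964). These are the highest of many correlations over few arrays that share 3 groups.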

How the data were processed

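The 9 RNA samples were hybridised to Agilent SurePrint G3 8 x 60K v2 arrays. The study took RNA from independent transduction experiments, which the labels do not tie to replicate numbers. SN cells were collected off dishes of colony cells, so a colony and an SN sample may share a dish. The authors deposited spot intensity from Agilent Feature Extraction 11.5.1.1 (annotation build hg19), background-subtracted and not scaled between arrays, and a table of log2 values, which equalled the log2 values computed here after 1 constant shift per array (to within 0.001).

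Here the 4259 control spots and 357 to 484 outlier-flagged spots per array were left out (no member spot was flagged and none was saturated), spots of a probe were averaged and the array's 75th percentile was subtracted. Detection required that 0.5 or more of a probe's spots were flagged significant and well above background. Names were assigned by RefSeq accession (GRCh38.p14 table; 30275 of 32065 accession-bearing probes matched). Each pair of groups was fitted on its 6 arrays with limma 3.58.1 (R 4.3.3), leaving out probes detected on none of them. A call needed both p under 0.05 after Benjamini-Hochberg adjustment and more than a 2-fold change. The study's thresholds on p and fold were the same, and whether its p was adjusted is not given in the sources used here. The scripts were tested on simulated data. The number of arrays limits the precision.

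Alternatives were normexp (offset 50, on median signals), quantile normalization, other detection filters, slide and replicate blocks, all 9 arrays in 1 fit, trended robust moderation, the deposited table and leaving out each array. All 10 members are named with every probe, and a few results on other genes that these rules would name are not reported here. From each other list the genes with a called probe are named (at most 4), or the 2 with the smallest p, and CDH1, EPCAM, ESRP1 and GRHL2 always; where a gene had several probes, the brightest stood for it. A fold against a group with no array above background is a lower bound, taken on each array of that group from the higher of its dimmest detected probe and the probe's own signal. Such a bound holds for the main processing only. With normexp the differences of GSC, CNN1, ACTG2 and SPARC were smaller than their bounds. Members and lists were chosen with earlier results of these data known. P-values weigh a difference against the spread between these arrays, which limma moderates over all probes. Where a colony and an SN sample share a dish, that spread is not the spread of independent samples.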

Additional observations from a re-analysis of the deposited data

How the results depend on the processing

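The count of called member probes in OSK-A549-Colony against parental A549 cells was 0 as reported and 1 in 4 settings: without a detection filter (a ZEB2 probe below background on all arrays), and with the stricter filter, all 9 arrays in 1 fit or trended robust moderation (ZEB1 A_33_P3374723, adjusted p = 0.0474, 0.0466 and 0.0398). Leaving out 1 array gave 0 to 1, the 1 being ACTA2 without parental replicate 1. In OSK-A549-SN against parental A549 cells the count was 1 with the stricter filter, all 9 arrays or trended robust moderation, each time FN1 (adjusted p = 0.0230, 0.0405 and 0.0183), and 0 with any array left out. In OSK-A549-Colony against OSK-A549-SN cells it was 0 throughout. At an unadjusted p the counts were 2, 1 and 1. The F test passed 1 member probe as reported, 4 with normexp, 3 with quantile normalization, 0 without a filter, 3 with the stricter filter, 0 with slide as a block, 6 with trended robust moderation, 6 at an unadjusted p, and 0 to 2 with 1 array left out. The cause was not tested. Of 524 member differences under alternatives, 513 moved by less than the replicate spread with no new call, 7 passed the call rule, 4 moved further and 26 changed sign, all of uncalled probes.

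The replicate numbers, which the labels do not tie to experiments, were not taken as pairs in the main fit. In colony against SN cells same-numbered deviations correlated at 0.239, 0.0732 and 0.138, all above the differently numbered ones, at -0.183 to 0.0296. Colony and SN samples of the same number may thus belong together, which was not tested. In the comparisons with parental cells same-numbered deviations correlated between -0.196 and 0.150, and the others between -0.272 and 0.335. The fit with the replicate block called 0 member probes in each of the 3 comparisons, passed 1 in the F test (FN1), and called 0 probes of any gene in the 3 comparisons. Of 18 called probes of the other lists, 5 stayed called with normexp, 7 without a filter and 16 with quantile normalization. Over all probes, the 1143 calls in colony against parental cells were 333 with normexp, 583 without a filter and 1424 with the stricter filter. They were 1581 with all 9 arrays and 1463 with trended robust moderation. The 498 in SN against parental cells were 234 with normexp, 215 without a filter, 980 with the stricter filter and 187 with slide as a block. They were 1085 with all 9 arrays and 920 with trended robust moderation. With 1 array left out the calls ran from 0 to 1362 in colony and from 0 to 190 in SN against parental cells. In colony against SN cells 0 probes were called as reported, 32 with normexp, 139 with the stricter filter, 9 with all 9 arrays and 166 with trended robust moderation. Slide 2 held OSK-A549-SN replicate 3 alone, so a slide block sets that array aside, and none could be fitted for OSK-A549-Colony against parental A549 cells. Signal near background limits SNAI2, ZEB2, ESRP1, GRHL2, SPARC and several called genes. With normexp the log2 differences of colony from parental cells were 0.36 for CNN1, 0.30 for GSC, 0.31 and 0.97 for the COL5A1 probes A_23_P83818 and A_33_P3629678, -0.22 for MARVELD3, 0.69, 0.75 and -0.94 for the TWIST2 probes A_19_P00322910, A_19_P00322911 and A_23_P21324, 0.95 for HMGA2 and 0.85 for CD68, none of them called. ACTG2 and CD68 in SN and KRT19 in colony against parental cells were also called with the stricter filter, all 9 arrays and trended robust moderation. CCN2 in colony against SN cells was called with trended robust moderation. KDR, above background on 1 SN array, was called in SN against parental cells with slide as a block and without SN replicate 3, each at 2.04. Its difference in the main fit was 1.19 (adjusted p = 0.390).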
